A study of Mus musculus with 6 samples.

Results

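Of the 22386 genes in the deposited table, 8 genes of blood coagulation and plasminogen activation were taken by symbol. They were F3, F8, F13a1, Pros1, Thbd, Plat, Plau and Plaur, and each symbol matched 1 row. RNA-seq libraries came from MC38, a mouse colorectal cancer cell line, in which a short hairpin RNA targets Acsl4 (shACSL4, 3 libraries), or which carry a control hairpin (shControl, 3 libraries). Acsl4 encodes an acyl-CoA synthetase that prefers long polyunsaturated fatty acids. The labels give the genotype as an Acsl4 knockdown in the shACSL4 cells and as WT in the shControl cells, whereas the series' design text speaks of knockout cells. Both groups were cultured in DMEM with serum and antibiotics, and no drug or other agent is named. Whether each hairpin line was a clone or a pool, and how many hairpins were used, is not given in the sources used here. Nothing states that replicates were separate cultures, so p-values measure only the spread between these libraries, which may be technical. The 8 genes were selected on their function and with their fold changes of shACSL4 over shControl in view. These fold changes are therefore given as a description, without p-values. How many of these genes were called is given beside the share over all genes, and nothing is read from it.

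Coagulation starts when tissue factor, the product of F3, meets factor VII from plasma on a cell surface, and it ends with thrombin cleaving fibrinogen and factor XIII crosslinking the fibrin. Thrombomodulin and protein S restrain it through the protein C pathway. Fibrin is removed by plasmin, which tissue-type and urokinase-type plasminogen activators (Plat and Plau) release from plasminogen, and which also cleaves matrix proteins around migrating cells. Tumour cells often carry tissue factor and the urokinase receptor Plaur, whereas most soluble coagulation factors are made by the liver.

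Library totals ranged over 41134232 to 47127672 counts in shACSL4 and 40911698 to 42058293 in shControl. Where a gene had no read in a library, up to 3 counts remain possible by counting error alone, equal to 0.0634 to 0.0734 counts-per-million (CPM). The targeted gene Acsl4 was at 131.7, 127.7 and 126.7 CPM in the shACSL4 libraries, against 191.1, 194.2 and 203.6 CPM in the shControl libraries (log2 fold change -0.61, SE 0.0517, adjusted p = 3.84e-06). CPM values are scaled by TMM, edgeR's correction for library composition, and can be compared between libraries for 1 gene. Over the whole transcriptome 29.1% of the 14289 tested genes passed the threshold, 15.4% with a higher and 13.6% with a lower level in shACSL4. Of 6 epithelial markers in the table, only Krt8 and Krt20 had enough counts to test, and Krt20 rose, at 1.69 ± 0.402 CPM in shACSL4 and 0.94 ± 0.136 CPM in shControl (adjusted p = 0.0361). Krt8 did not pass, at 0.843 ± 0.212 CPM in shACSL4 and 0.733 ± 0.129 CPM in shControl (adjusted p = 0.701). The epithelial list summed to 2.35 to 3.5 CPM in shACSL4 and 1.59 to 2.07 CPM in shControl, and Cdh1 had at most 4 counts in any library. Fibroblast markers summed to 727 to 901 CPM in shACSL4 and 759 to 860 CPM in shControl, nearly all of it in Dcn, which fell, and Pdgfra, which rose. Dcn was at 523 ± 87.3 CPM in shACSL4 and 668 ± 54.1 CPM in shControl (adjusted p = 0.0431), and Pdgfra at 264 ± 12 and 123 ± 4.48 CPM (adjusted p = 4.85e-08). Pdgfrb, at a far lower level, also rose, at 2.37 ± 0.277 CPM in shACSL4 and 1.22 ± 0.0882 CPM in shControl (adjusted p = 0.00559). Col1a1, Col1a2 and Lum did not pass (adjusted p = 0.972, 0.232 and 0.215). Endothelial markers, for a cell type known for Thbd, Plat and F8, summed to 1.21 to 1.84 CPM in shACSL4 and 0.759 to 1.38 CPM in shControl. Of the 8 endothelial markers 2 could be tested, Erg and Cdh5. Erg was called higher (adjusted p = 0.000157), with 32, 25 and 50 counts in the shACSL4 libraries and 2 in each shControl library. Its shControl counts lie under the limit that a count of 0 allows, so Erg passed the expression filter through the shACSL4 libraries alone. Cdh5 did not pass, at 0.345 ± 0.104 CPM in shACSL4 and 0.434 ± 0.158 CPM in shControl (adjusted p = 0.633). Pecam1 had at most 10 counts in any library. The part of these markers in the results that follow was not tested. In a bulk sample, fewer cells carrying a transcript and less of it per cell cannot be told apart.

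Both cell-surface receptors that bind a protease at the start of these cascades were lower in shACSL4 cells. F3 (chromosome 3, 121517186 to 121528697 on GRCm39) encodes tissue factor, the receptor of factor VII. It was at 26.8, 29.94 and 25.63 CPM in the shACSL4 libraries, against 37.73, 40.77 and 43.25 CPM in the shControl libraries. Every shACSL4 library was below every shControl library, and the log2 fold change was -0.56 (SE 0.0804), or 0.676 of the shControl level. Plaur (chromosome 7, 24161909 to 24175393) encodes the urokinase receptor, a lipid-anchored protein that holds urokinase at the membrane. It was at 35.75, 41.03 and 41.78 CPM in the shACSL4 libraries, against 47.35, 54.85 and 57.78 CPM in the shControl libraries. The groups did not overlap here either, and the log2 fold change was -0.43 (SE 0.0852), or 0.741 of the shControl level.

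The promoter windows of these receptor genes, from 250 bases before to 50 bases after the annotated start, are shown because both hold the AP-1 motif TGANTCA, which binds Fos and Jun family dimers. The window of Pros1, which was higher in shACSL4, is shown beside them as one without the motif. F13a1, which was lower in shACSL4 (log2 fold change -1.11), also lacked the motif. So did F8, which was higher, and the windows of F13a1 and F8 are not shown. The sequences are RefSeq's on GRCm38.p6, a different build from that of the table, and capitals mark AP-1 matches. The motif reads the same on both strands.
F3, chr3:121723287-121723586, plus strand: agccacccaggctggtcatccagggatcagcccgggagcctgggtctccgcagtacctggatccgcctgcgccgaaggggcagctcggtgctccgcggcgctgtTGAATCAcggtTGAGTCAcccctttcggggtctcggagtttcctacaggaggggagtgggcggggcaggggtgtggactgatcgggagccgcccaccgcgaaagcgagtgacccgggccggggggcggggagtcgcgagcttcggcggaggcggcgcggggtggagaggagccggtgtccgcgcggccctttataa
Plaur, chr7:24462233-24462532, plus strand: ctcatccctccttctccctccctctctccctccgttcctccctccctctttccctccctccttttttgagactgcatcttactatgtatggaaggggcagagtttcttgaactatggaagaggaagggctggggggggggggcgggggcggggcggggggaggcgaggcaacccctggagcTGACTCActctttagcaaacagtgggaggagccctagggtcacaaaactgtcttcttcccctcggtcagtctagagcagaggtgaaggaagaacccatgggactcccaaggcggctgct
Pros1, chr16:62854057-62854356, plus strand: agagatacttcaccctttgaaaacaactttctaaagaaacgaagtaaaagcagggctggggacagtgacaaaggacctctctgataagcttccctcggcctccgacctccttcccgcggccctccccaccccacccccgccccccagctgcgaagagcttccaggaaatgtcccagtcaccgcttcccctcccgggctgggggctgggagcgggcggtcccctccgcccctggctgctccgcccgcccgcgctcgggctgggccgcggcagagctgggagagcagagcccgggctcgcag
In F3 the matches were TGAATCA and TGAGTCA, beginning 146 and 135 bases before the start, and in Plaur the match was TGACTCA, beginning 69 bases before it. None of these matches overlapped a match to another motif searched. TGANTCA was found in 7.81% of all 32851 promoter windows of this length. The windows of F8, Pros1 and both annotated starts of F13a1 held no match, and Thbd, Plat and Plau were not searched. The GC box GGGCGG, searched on both strands, was found 3 times in F3, 3 times in Plaur and 5 times in Pros1, and in 35.7% of all windows. TATAAA (13.6% of all windows) was found once, in F3, on the reverse strand and after the annotated start. The STAT motif TTCNNNGAA (8.3% of all windows) was found once, in Pros1 as TTCCAGGAA. The motifs were chosen with the values and these windows in view, and a match describes letters, not a bound site.

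The fibrin-stabilising and cofactor genes lay on opposite sides. F13a1 (chromosome 13, 37051152 to 37234220) encodes the A subunit of factor XIII, the transglutaminase that crosslinks fibrin. It was at 4.635, 4.637 and 4.884 CPM in the shACSL4 libraries, against 10.8, 9.618 and 10.22 CPM in the shControl libraries. These levels did not overlap, and F13a1 was at 0.462 of its shControl level, with a log2 fold change of -1.11 (SE 0.116). Its spread within a group was small, with a coefficient of variation of 3.04% in shACSL4 and 5.81% in shControl. F13a1 is known from macrophages and platelets. The pan-leukocyte marker Ptprc had 4, 2 and 2 counts in the shACSL4 libraries and 2, 0 and 0 in the shControl libraries. The 5 platelet and megakaryocyte markers in the table summed to 2.22 to 3.26 CPM in shACSL4 and 1.94 to 2.57 CPM in shControl, mostly Itga2b and Gp1ba, the 2 that could be tested, and neither passed. Itga2b was at 1.49 ± 0.57 CPM in shACSL4 and 1.13 ± 0.337 CPM in shControl (adjusted p = 0.397), and Gp1ba at 1.01 ± 0.215 and 0.948 ± 0.295 CPM (adjusted p = 0.871). Pf4 had 0 counts in all but shControl 2, where it had 4. The 7 macrophage markers in the table summed to 21.3 to 24.7 CPM in shACSL4 and 19.5 to 22.6 CPM in shControl, mostly Cd14, Cd68 and Lyz2. Of the 4 tested Lyz2 rose, at 4.66 ± 0.525 CPM in shACSL4 and 1.56 ± 0.351 CPM in shControl (adjusted p = 9.26e-05). Cd68 was at 4.68 ± 0.442 CPM in shACSL4 and 5.32 ± 1.22 CPM in shControl (adjusted p = 0.466), and neither Cd14 nor Mrc1 passed (adjusted p = 0.878 and 0.742). Csf1r, under the expression filter, had 6 counts over the shACSL4 libraries and 16 over the shControl libraries. The part of these markers in the level of F13a1 was not tested.

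F8 (chromosome X, 74216321 to 74426221) encodes factor VIII, the cofactor of factor IX that is missing in haemophilia A. It was at 7.605, 6.827 and 8.669 CPM in the shACSL4 libraries, against 3.657, 4.283 and 5.497 CPM in the shControl libraries. The groups did not overlap, and F8 was 1.72-fold higher in shACSL4 (log2 fold change 0.78, SE 0.163). The shControl libraries varied more for F8 than for any other of the 6 fitted genes, with a coefficient of variation of 20.9%. F8 shares 217 bases with Fundc2 on the opposite strand, and the strandedness of the libraries is not given in the sources used here. Fundc2 had 6707, 6806 and 6513 counts in the shACSL4 libraries and 7012, 6938 and 5574 in the shControl libraries (log2 fold change -0.04, adjusted p = 0.777), against 315, 293 and 410 counts of F8 in shACSL4 and 154, 175 and 227 in shControl. No other of the 8 genes overlapped a gene in the table.

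Among the anticoagulants, Pros1 was higher in shACSL4 and Thbd was not detected at a level that could be compared. Pros1 (chromosome 16, 62674670 to 62749709) encodes protein S, a cofactor of activated protein C and a ligand of the receptor tyrosine kinases Tyro3 and Mertk. It was at 26.7, 26.17 and 22.39 CPM in the shACSL4 libraries, against 18.52, 19.87 and 16.18 CPM in the shControl libraries. The groups did not overlap, and Pros1 was 1.38-fold higher (log2 fold change 0.46, SE 0.0999). Thbd (chromosome 2, 148246386 to 148250108) encodes thrombomodulin, which turns thrombin from a procoagulant into an activator of protein C. It had 2, 0 and 0 counts in the shACSL4 libraries and 2, 0 and 0 in the shControl libraries, all under the limit that a count of 0 allows.

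Of the plasminogen activators, MC38 cells carried transcripts of the tissue type and hardly any of the urokinase type. Plat (chromosome 8, 23247743 to 23272860) encodes tissue-type plasminogen activator. It was at 41.98, 43.48 and 39.44 CPM in the shACSL4 libraries, against 32.27, 35.34 and 30.56 CPM in the shControl libraries. The groups did not overlap, and Plat was 1.27-fold higher (log2 fold change 0.35, SE 0.0738). Plau (chromosome 14, 20886728 to 20893453) encodes urokinase, the ligand of Plaur. It had 8, 0 and 2 counts in the shACSL4 libraries and 4, 8 and 0 in the shControl libraries, too few to fit. A difference in Plau was not detectable at this depth, since the groups spanned nearly the same range.

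**Figure D1:**
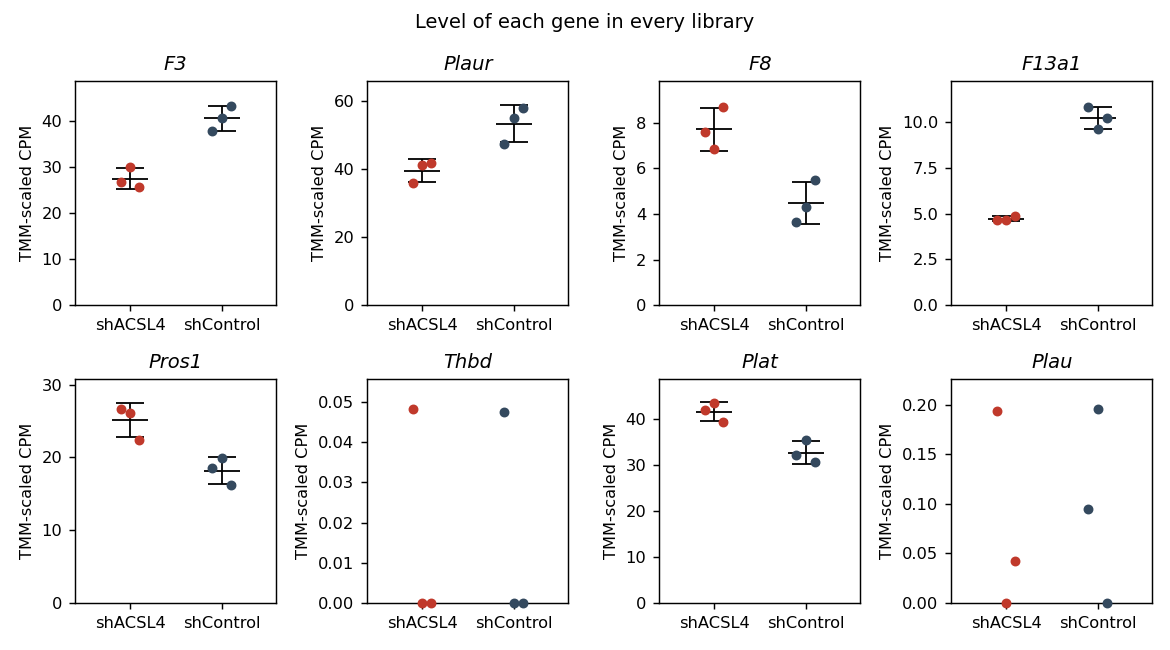
TMM-scaled CPM of the 8 genes in each library (points), with mean and SD (bars, n = 3) for the 6 genes that could be fitted, in shACSL4 (left) and shControl (right). F3, Plaur and F13a1 lie lower and F8, Pros1 and Plat higher in every shACSL4 library, while Thbd and Plau stay under 0.2 CPM.

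Of the 8 genes, 6 had enough counts to be fitted. By edgeR's quasi-likelihood test over all genes, 3 of them were called higher and 3 lower, beside 15.4% and 13.6% of all genes tested. The groups of libraries did not overlap for the same 3 higher and 3 lower genes, beside 22.0% and 20.8% of all genes tested, or 42.8% in either direction. Since this contrast was known when the genes were chosen, nothing is read from these counts. The log2 fold change in the authors' deposited table was -0.57 for F3, -0.43 for Plaur, -1.11 for F13a1, 0.78 for F8, 0.46 for Pros1 and 0.35 for Plat. With each library left out in turn, the log2 fold change stayed between -1.16 and -1.07 for F13a1, between -0.63 and -0.51 for F3 and between -0.51 and -0.36 for Plaur. It stayed between 0.65 and 0.96 for F8, between 0.39 and 0.54 for Pros1 and between 0.30 and 0.40 for Plat.

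Levels between genes were compared in FPKM, the authors' values scaled for gene length and library size. In shACSL4 cells Plaur was the highest at 15.1 ± 1.22 FPKM, followed by F3 at 10.9 ± 0.853, Plat at 6.69 ± 0.318, Pros1 at 6.16 ± 0.579, F8 at 0.78 ± 0.095 and F13a1 at 0.702 ± 0.0217 (SD, n = 3). In shControl cells Plaur was at 20.3 ± 1.82 FPKM, F3 at 16.0 ± 0.89, Plat at 5.22 ± 0.424, Pros1 at 4.43 ± 0.498, F13a1 at 1.51 ± 0.0963 and F8 at 0.45 ± 0.0879 (SD, n = 3). The ranges of Plat and Pros1 overlapped in both groups, while within each of the 6 libraries Plat was above Pros1. In the shACSL4 libraries F8 was at 0.773, 0.689 and 0.878 FPKM and F13a1 at 0.692, 0.687 and 0.727 FPKM. F8 was thus above F13a1 in each of them, by little in shACSL4 2, and the ranges of the genes overlapped. In every shControl library F13a1 lay above F8. In shControl cells 81.6% of the tested genes had a lower FPKM than Plaur, 77.1% than F3, 50.3% than Plat, 47.0% than Pros1, 30.7% than F13a1 and 18.2% than F8.

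**Figure D2:**
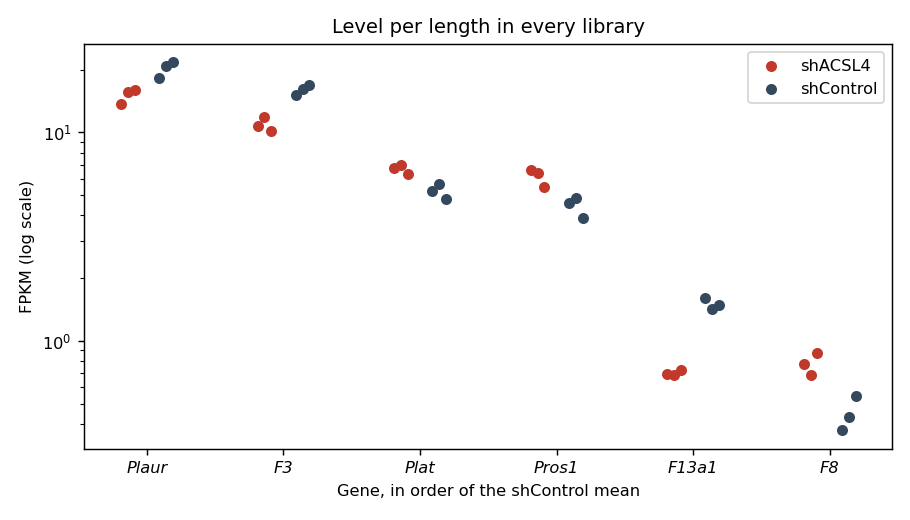
FPKM (log axis) of the 6 genes with enough counts in each library, shACSL4 left of shControl for each gene, in order of the shControl mean. Plaur and F3 are the highest in both groups, and the ranges of F8 and F13a1 overlap in shACSL4 but not in shControl.

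Ratios between some of these genes, and to Tfpi and Tgm2, within each library are given as a description. The FPKM ratio of F3 to Tfpi, which encodes the inhibitor of the complex of tissue factor and factor VII, was 0.594, 0.621 and 0.615 in the shACSL4 libraries, against 0.763, 0.859 and 0.862 in the shControl libraries. The ratio of F13a1 to the tissue transglutaminase gene Tgm2 was 0.605, 0.546 and 0.417 in the shACSL4 libraries, against 2.16, 1.36 and 1.59 in the shControl libraries. In these ratios the groups of libraries lay apart, and Tgm2 was above F13a1 per length in every shACSL4 library and below it in every shControl library. The ratio of Plaur to Plat was 2.03, 2.25 and 2.53 in the shACSL4 libraries, against 3.5, 3.7 and 4.51 in the shControl libraries, again with no overlap. F13a1 and Plaur were lower, and Tgm2 and Plat higher, in every shACSL4 library, so the separation of their ratios was fixed by those levels. Tfpi moved little (log2 fold change -0.12), so the ratio of F3 to Tfpi mostly restates the level of F3. The ratio of Plaur to F3 overlapped between the groups, at 1.29, 1.32 and 1.57 in shACSL4 and 1.21, 1.3 and 1.29 in shControl.

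**Figure D3:**
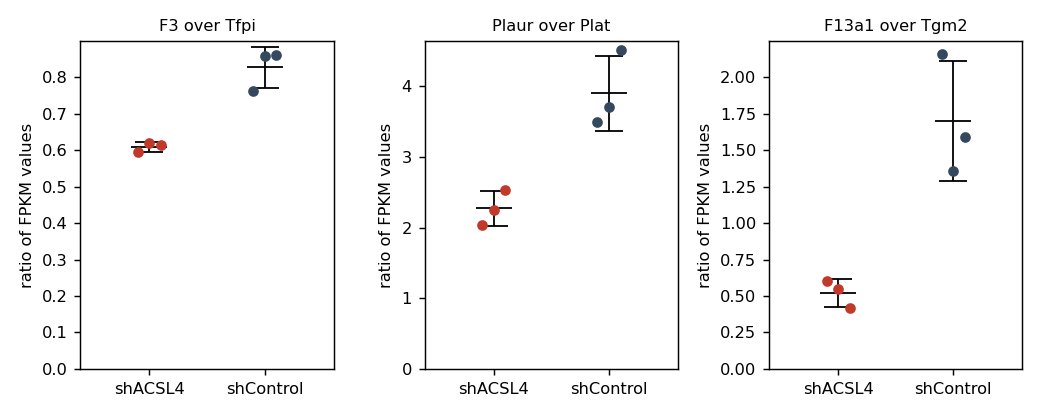
Ratio of FPKM values of 2 genes within each library (points), with mean and SD (bars, n = 3), in shACSL4 (left) and shControl (right). All 3 ratios are lower in every shACSL4 library, that of F3 to Tfpi at 0.61 ± 0.0139 in shACSL4 against 0.828 ± 0.0562 in shControl. They restate the levels of the single genes and are no further result.

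Other genes of these pathways were taken from 8 lists set by function, though with earlier results of these data known. Of 60 genes, 51 were in the table and 25 had enough counts to test. Of those 25, 6 rose and 6 fell at adjusted p under 0.05 over all genes tested, beside 15.4% and 13.6% of all genes, and their median log2 fold change was -0.12, against -0.01 over all genes. Without shACSL4 replicate 3 the numbers were 5 and 2, and without shControl replicate 2 they were 8 and 3. The deposited KEGG annotation for complement and coagulation cascades held all 8 genes described here.

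Of 6 inhibitors of plasminogen activators and plasmin, 1 had enough counts to test, and it did not pass. Serpini1, which encodes neuroserpin, an inhibitor of tissue-type plasminogen activator, was at 2.41 ± 0.347 CPM in shACSL4 and 2.8 ± 0.407 CPM in shControl (adjusted p = 0.446). Serpine2 and Serpinb2, which also encode inhibitors of plasminogen activators, had at most 6 counts in any library. A2m, which encodes a broad protease inhibitor, had 14, 10 and 12 counts in the shACSL4 libraries and 0, 2 and 0 in the shControl libraries. It lay under the expression filter, and with no filter edgeR gave adjusted p = 0.00713. Serpinf2 of the same list, also under the filter, went the other way, with 2, 2 and 6 counts in shACSL4 and 12, 9 and 6 in shControl. Serpinf2 was not called with no filter. A2m, Serpinf2, and Serpina10 among the anticoagulants, are named for their values.

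Plasminogen receptors and clearance receptors had 3 of 7 tested genes higher and 2 lower. The subunits of the annexin complex that binds tissue-type plasminogen activator and plasminogen both fell. S100a10 was at 153.4, 157.6 and 156.2 CPM in the shACSL4 libraries, against 200.9, 198.3 and 198.4 CPM in the shControl libraries, a log2 fold change of -0.36 (SE 0.0487, adjusted p = 0.000166). Anxa2 was at 885 ± 40.5 CPM in shACSL4 and 1052 ± 65.1 CPM in shControl (log2 fold change -0.25, adjusted p = 0.00792), and without shACSL4 replicate 3 its adjusted p was 0.0542. Plgrkt, a transmembrane plasminogen receptor gene, rose 1.27-fold, at 46.6 ± 1.19 CPM in shACSL4 and 36.6 ± 0.886 CPM in shControl (adjusted p = 0.00104).

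Mrc2, which encodes a collagen receptor that associates with the urokinase receptor, rose 1.77-fold. It was at 174.4, 165.1 and 171.3 CPM in the shACSL4 libraries and 96.82, 94.08 and 98.46 CPM in the shControl libraries (adjusted p = 3.43e-07). Vldlr, a receptor that can clear complexes of plasminogen activators with their inhibitors, rose 1.39-fold, at 49.8 ± 5.14 CPM in shACSL4 and 35.7 ± 4.16 CPM in shControl (adjusted p = 0.0028). Lrp1, another such clearance receptor, was at 142 ± 5.23 CPM in shACSL4 and 138 ± 6.12 CPM in shControl (adjusted p = 0.573). Plg itself had 2, 0 and 0 counts in the shACSL4 libraries and 0 in each shControl library. Anxa2, S100a10 and Eno1 have near-identical copies in the genome, so the share of their reads that was counted is uncertain.

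Of the protease-activated receptors, 1 of 4 had enough counts to test, and it fell. F2r, which encodes the protease-activated receptor that thrombin cleaves, was at 84.38, 86.56 and 81.6 CPM in the shACSL4 libraries, against 106.3, 104 and 110.9 CPM in the shControl libraries. The groups did not overlap (log2 fold change -0.35, SE 0.0538, adjusted p = 0.000431). F2rl1, the receptor cleaved by factor VII and factor X with tissue factor, had 2, 0 and 0 counts in the shACSL4 libraries and 0 in each shControl library. F2rl2 and F2rl3 also had too few counts to test. F2rl2 had 2, 0 and 0 counts in the shACSL4 libraries and 5, 4 and 12 in the shControl libraries.

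Among the anticoagulant genes other than Pros1, 0 of 4 tested genes passed the threshold. Tfpi was at 97.3 ± 7.11 CPM in shACSL4 and 106 ± 3.02 CPM in shControl (log2 fold change -0.12, SE 0.0617, adjusted p = 0.157). Procr, which encodes the endothelial protein C receptor, was at 29.79, 29.69 and 26.3 CPM in the shACSL4 libraries and 32.25, 33.95 and 32.16 CPM in the shControl libraries (adjusted p = 0.0645). Its call changed without shControl replicate 3 (adjusted p = 0.0398). Anxa5, a phosphatidylserine-binding protein gene, was at 531 ± 25.9 CPM in shACSL4 and 538 ± 40 CPM in shControl (adjusted p = 0.851), and the antithrombin gene Serpinc1 had 33 counts in all in shACSL4 and 34 in shControl (adjusted p = 0.891). Serpina10, which encodes an inhibitor of factor X, had 9, 11 and 12 counts in the shACSL4 libraries and 0 in each shControl library. It lay under the expression filter, and with no filter edgeR gave adjusted p = 0.0012.

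Among the receptors for protein S, Mertk rose and Tyro3 fell. Mertk was at 72.98, 86.15 and 73.82 CPM in the shACSL4 libraries, against 65.47, 61.38 and 59.91 CPM in the shControl libraries (1.25-fold, adjusted p = 0.00537). Tyro3 was at 63.2 ± 1.35 CPM in shACSL4 and 74.7 ± 6.48 CPM in shControl (log2 fold change -0.24, adjusted p = 0.0177), and its adjusted p was 0.0661, 0.0604, 0.0603 and 0.0841 without shACSL4 replicates 2 and 3 and shControl replicates 1 and 2. Axl, the most abundant receptor of this family per length at 116 FPKM in shACSL4 and 103 FPKM in shControl, did not pass (log2 fold change 0.15, SE 0.0797, adjusted p = 0.194), and without shControl replicate 3 its adjusted p was 0.0153. Gas6, the other ligand of this family, had 2, 0 and 4 counts in the shACSL4 libraries and 2, 0 and 0 in the shControl libraries.

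Genes that make and export vitamin K-dependent and related factors had 0 of 5 higher and 2 lower. Ggcx, the carboxylase gene that protein S needs for maturation, was at 30.7 ± 1.69 CPM in shACSL4 and 33.8 ± 3.56 CPM in shControl (adjusted p = 0.246). Vkorc1, the epoxide reductase that is the target of warfarin, was at 0.231 ± 0.156 CPM in shACSL4 and 0.442 ± 0.0938 CPM in shControl (adjusted p = 0.234). Its relative Vkorc1l1 was far higher and fell, at 89.6 ± 5 CPM in shACSL4 and 102 ± 4.68 CPM in shControl (log2 fold change -0.19, adjusted p = 0.0303). Mcfd2, which with Lman1 carries factor VIII from the endoplasmic reticulum to the Golgi, fell, at 85.4 ± 3.48 CPM in shACSL4 and 102 ± 8.35 CPM in shControl (log2 fold change -0.25, adjusted p = 0.0126), while Lman1 was at 238 CPM in both (adjusted p = 0.968). The call of Vkorc1l1 ended without shACSL4 replicate 2 (adjusted p = 0.128), shACSL4 replicate 3 (0.0967) or shControl replicate 2 (0.0871), and that of Mcfd2 without shACSL4 replicate 3 (0.0672), shControl replicate 1 (0.0526) or shControl replicate 2 (0.0631).

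Other transglutaminases had 1 of 3 tested genes higher. Tgm2 was at 5.239, 5.802 and 8.014 CPM in the shACSL4 libraries, against 3.42, 4.846 and 4.383 CPM in the shControl libraries (1.51-fold, SE of the log2 fold change 0.185, adjusted p = 0.0292). Its call ended without shACSL4 replicate 2 (adjusted p = 0.0531), shACSL4 replicate 3 (0.159) or shControl replicate 1 (0.123). Of the circulating coagulation factors and fibrinogen chains, 9 of 15 were in the table and 1 could be tested. F2, F7, F9, F11, Fgg and Kng1 had at most 6 counts in any library, while F5 and Vwf had at most 8, and F10, Fga, F12, F13b, Fgb, Klkb1 and Proc were not analysed here. The tested one, Kng2, a kininogen gene, had 25, 13 and 25 counts in the shACSL4 libraries and 6, 0 and 0 in the shControl libraries (adjusted p = 0.0112). Its log2 fold change of 3.24 rested on shControl replicate 1, since without that library no shControl read was left and the fitted value, 7.36, is not a measured fold. Without shControl replicate 2 or 3 the log2 fold change was 2.69 or 2.68. The reads of Kng2 may be shared with the near-identical Kng1, and the stricter filter removed it.

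**Figure D4:**
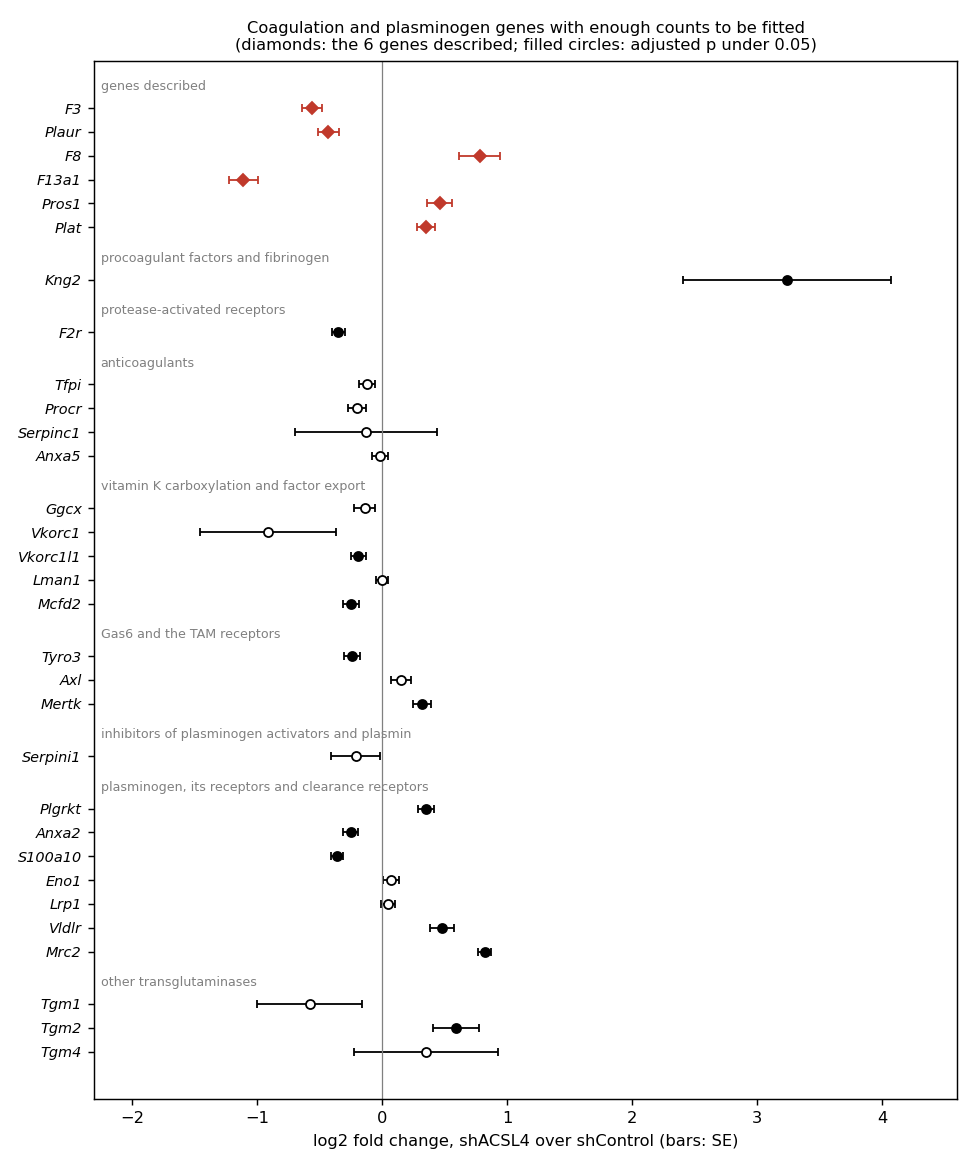
Log2 fold change of shACSL4 over shControl with its SE for the 6 fitted genes described (diamonds) and for the 25 tested genes of the 8 pathway lists (circles, filled where adjusted p is under 0.05). S100a10, F2r and Anxa2 lie below 0, Mrc2 lies at 0.82, and Kng2, at 3.24 with reads in 1 shControl library, has the widest error bar.

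The genes most like each of the 6 fitted ones across the 6 libraries were found by the root mean square (RMS) difference of log2 CPM. Each gene was centred on its mean, and the search covered protein-coding genes of at least 5 CPM with an established symbol. For F3 they were Fam171a1 (RMS difference 0.029) and Csnk1e (0.0382), and for Plaur they were B4galt3 (0.0515) and Cat (0.054). For F13a1 they were Mgat4a (0.0588) and Magea9 (0.0867), and for F8 they were Elavl4 (0.0786) and Nrp2 (0.0938). For Plat they were Slc25a51 (0.0255) and Naglu (0.0306), and for Pros1 they were Vldlr (0.0334) and Col3a1 (0.0377). Vldlr was the only one of these that was also on a pathway list. The search is a description with no test, and it mainly finds genes with a like fold change between the groups. The log2 fold change was 0.48 for Vldlr beside 0.46 for Pros1, and -0.53 for Fam171a1 beside -0.56 for F3.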

How the data were processed

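RNA was extracted from MC38 cells with Trizol, depleted of ribosomal RNA and primed with random hexamers, per the labels' protocols. The submitters' processing notes name CASAVA, HISAT2 and DESeq2 and the build GRCm39. The counting program, annotation release and strand setting are not given in the sources used here. Raw counts for each gene and library were deposited, per the file headers and as tested on the values, and FPKM values made by the authors with a gene length that is not stated. The log2 fold change and its p-value in that table are the authors'. The p-values of that table were not used.

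Counts were analysed in R 4.3.3 with edgeR 4.0.16. The quasi-likelihood test was robust and two-sided and had the hairpin group as its sole term. Libraries were scaled by TMM, and genes had to pass edgeR's expression filter (minimum count 10, minimum total 15). The Benjamini-Hochberg adjustment ran over the 14289 genes that passed, with a threshold of 0.05. SE is the log2 fold change over the square root of F. Values are means ± SD over 3 libraries. The likeness search added 0.1 to each CPM before taking logs, and left out genes named only by a Gm, Rik or identifier-style symbol. The workflow was tested on simulated data.

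Scaling was varied (DESeq2's size factors, or none beyond library size), as were the test (DESeq2 1.42.0, limma-voom of limma 3.58.1) and the filter (none, or 60 counts in total with 1 CPM in at least 3 libraries). Fits were also made on protein-coding genes, with a block for the replicate number, and with each library left out.

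The 8 genes, the pathway lists and the motifs were chosen with earlier results of these data known. Named from the lists were all genes past the threshold, up to 6 a list, and 24 genes whatever their result. A gene of the lists is not reported here. Promoter windows came from RefSeq on GRCm38.p6 and were matched by symbol.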

Additional observations from a re-analysis of the deposited data

How the results depend on the processing

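With each library left out in turn, the number of changed genes ranged over 2944 to 5477 of those tested, with 1666 to 2818 higher and 1252 to 2659 lower. The same for the pathway lists was 7 to 16, with 5 to 9 higher and 2 to 7 lower. The lowest numbers of lower genes, 1252 and 2, came without shACSL4 replicate 3. The log2 fold change of Acsl4 stayed between -0.63 and -0.58 under all 14 alternatives and kept its call. For the 6 fitted coagulation and plasminogen genes it kept its sign in each, and moved by less than the SD between libraries. The other scalings moved the median of all genes by no more than 0.010 on the log2 scale. With DESeq2 or with no filter, 14 list genes were called, 8 of them higher, A2m and Serpina10 being the added ones.

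The replicate numbers are shared between groups, but nothing states what they mark. Deviations of same-numbered libraries correlated at 0.0826, 0.0637 and 0.126, so the numbers were not taken as pairs, although each of the 6 libraries correlated best with its own number. With the number as a block, 5163 genes were called (2616 higher, 2547 lower), and 14 list genes (7 higher, 7 lower), with Axl (adjusted p = 0.0217) and Procr (0.0336) added. Depth limits what can be said of Thbd, Plau, Plg and the circulating factors, which had few counts.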
